A study of Mus musculus with 6 samples.

Results

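The genes described here are 10 nuclear genes that drive or regulate expression of the mitochondrial genome in mouse liver, namely Polrmt, Tfam, Tfb2m, Polg, Twnk, Lrpprc, Slirp, Nrf1, Gabpa and Ppargc1a. They were chosen as a list of gene symbols in the GENCODE M21 annotation, out of 54532 genes with an Ensembl identifier in the table, and all 10 were among the 12795 genes with enough counts to be tested. Liver RNA was sequenced from male wild-type C57BL/6J mice, 8 weeks old at the start, in 2 groups of 3 libraries. HFD mice (replicates 1 to 3) were kept on a high-fat diet for 4 weeks and then for 4 more. HFD+Allantoin mice (replicates 4 to 6) had the same diet, with allantoin, an oxidation product of uric acid, in their drinking water during the last 4 weeks. The labels name 2 concentrations without assigning either to a library, and the study's name for these mice, Allantoin-H, is that of the higher one, 0.3 mg/mL. No group on a normal diet is compared here, so both groups share the diet. The labels do not say whether each library came from a separate mouse, so p-values measure the spread between libraries only.

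Mitochondrial DNA (mtDNA) encodes protein subunits of the respiratory chain together with the rRNAs and tRNAs needed to translate them, and everything that transcribes, copies and stabilises it is encoded in the nucleus. The RNA polymerase Polrmt starts transcription with the DNA-bending factor Tfam and the melting factor Tfb2m, the polymerase Polg and the helicase Twnk copy the DNA, and the Lrpprc and Slirp proteins form a complex that stabilises mitochondrial mRNAs. The nuclear factors Nrf1 and Gabpa bind promoters of many of these genes and of respiratory chain genes, and the coactivator Ppargc1a (PGC-1α) works with such factors in liver metabolism.

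The members that passed the test were Tfam, Gabpa and Ppargc1a, and their promoters are shown with that of Polrmt, which moved in the other direction without passing. Sequences were taken from the RefSeq promoter table (build GRCm38.p6), each spanning 250 bases before the start site and 50 bases from it on, 5′ to 3′ on the gene's strand. Capitals mark the core bound by ETS factors such as GABP, CCGGAAG, and the core bound by NRF-1, GCGCNTGCG, searched on both strands, so that CTTCCGG is the ETS core read from the other strand.
Tfam (chr10:71237995-71238294, minus strand): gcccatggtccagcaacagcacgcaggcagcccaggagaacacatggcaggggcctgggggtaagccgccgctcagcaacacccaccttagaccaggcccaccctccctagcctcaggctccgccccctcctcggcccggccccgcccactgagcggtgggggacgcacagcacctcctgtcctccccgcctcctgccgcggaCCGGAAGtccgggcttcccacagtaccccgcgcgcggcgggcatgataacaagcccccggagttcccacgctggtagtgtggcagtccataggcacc
Gabpa (chr16:84834874-84835173, plus strand): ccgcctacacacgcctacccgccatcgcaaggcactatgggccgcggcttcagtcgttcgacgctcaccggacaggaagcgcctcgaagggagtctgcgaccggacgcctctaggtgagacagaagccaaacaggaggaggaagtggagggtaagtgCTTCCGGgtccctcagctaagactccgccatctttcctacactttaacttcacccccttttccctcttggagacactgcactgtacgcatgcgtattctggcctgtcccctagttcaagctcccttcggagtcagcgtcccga
Ppargc1a (chr5:51567676-51567975, minus strand): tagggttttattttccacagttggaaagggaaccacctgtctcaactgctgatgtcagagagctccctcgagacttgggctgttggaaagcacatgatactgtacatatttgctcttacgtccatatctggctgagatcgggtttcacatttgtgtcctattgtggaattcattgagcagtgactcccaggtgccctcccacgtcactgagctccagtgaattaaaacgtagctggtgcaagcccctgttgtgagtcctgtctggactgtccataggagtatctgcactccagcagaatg
Polrmt (chr10:79746532-79746831, minus strand): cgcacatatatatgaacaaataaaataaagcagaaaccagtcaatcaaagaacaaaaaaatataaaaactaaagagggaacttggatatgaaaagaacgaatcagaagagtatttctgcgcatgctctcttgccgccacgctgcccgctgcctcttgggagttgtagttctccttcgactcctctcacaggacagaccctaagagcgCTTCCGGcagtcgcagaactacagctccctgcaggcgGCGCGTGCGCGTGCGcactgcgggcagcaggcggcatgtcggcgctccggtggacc
The Tfam promoter held 1 ETS core and no NRF-1 core, and so did the Gabpa promoter, where the core was on the other strand. Neither core was found in the Ppargc1a window. The Polrmt promoter held 1 ETS core and 2 NRF-1 cores that overlapped each other. Over all 10 members, which had 12 promoters in the table, 6 members held an ETS core and 3 an NRF-1 core in any promoter. Either core was held by 7 members, and 3 (Lrpprc, Nrf1 and Ppargc1a) held neither. Among all 32851 promoters of the table, 8.86% held the ETS core and 6.31% the NRF-1 core. These shares count single promoters, not genes, and were not matched to the members in GC content. These matches describe the letters only.

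The table holds raw read counts per gene, with totals between 11304059 and 14562848 per library, and member genes had between 17 and 1788 counts in a library. Levels are given as CPM (reads of a gene scaled to a common library total) after TMM normalization, a scaling that sets most genes equal between libraries. The scaling factors were 0.756 to 0.951 in HFD and 1.12 to 1.19 in HFD+Allantoin, so the groups differed in composition. Hepatocyte markers were abundant in every library, with summed levels between 77167 and 107572 CPM over 12 genes. In genes of fat cells 1 library stood apart. HFD replicate 2 had 520 counts of Adipoq, 498 of Plin1, 115 of Lep, 200 of Retn and 26 of Ucp1. Each of these was at 2 counts or fewer in the other 5 libraries. HFD replicate 3 differed from HFD replicates 1 and 2 in other markers. It had 521 counts of Sox9 against 119 and 84, and 1863 of the hemoglobin gene Hba-a1 against 6153 and 5561. The part of either library in the results was not tested beyond repeating each comparison without it. Without HFD replicate 2, 2 of the members (Tfam and Gabpa) still passed the test and Ppargc1a did not (edgeR adjusted p = 0.0767).

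Across the 10 members, 3 were higher in HFD+Allantoin than in HFD at an adjusted p under 0.05 (edgeR quasi-likelihood test, Benjamini-Hochberg adjustment over all genes tested), and none was lower. Tfam rose 1.48-fold, Gabpa 1.62-fold and Ppargc1a 2.0-fold. The other 7 did not pass. Among all genes tested, 24.3% passed in either direction, 11.3% as higher and 13.0% as lower in HFD+Allantoin. The count of 0 lower members was the same with DESeq2 and limma-voom. At an unadjusted p under 0.05, 0 members were lower in edgeR and limma-voom and 1 was lower in DESeq2. The median log2 fold change of the members was 0.20, beside -0.03 for all genes tested. In 5 of the 10 members every HFD+Allantoin library lay above every HFD library, and in 0 every one lay below. Over all genes tested, groups without overlap were found in 44.3%, with 22.4% higher and 21.9% lower.

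**Figure D1:**
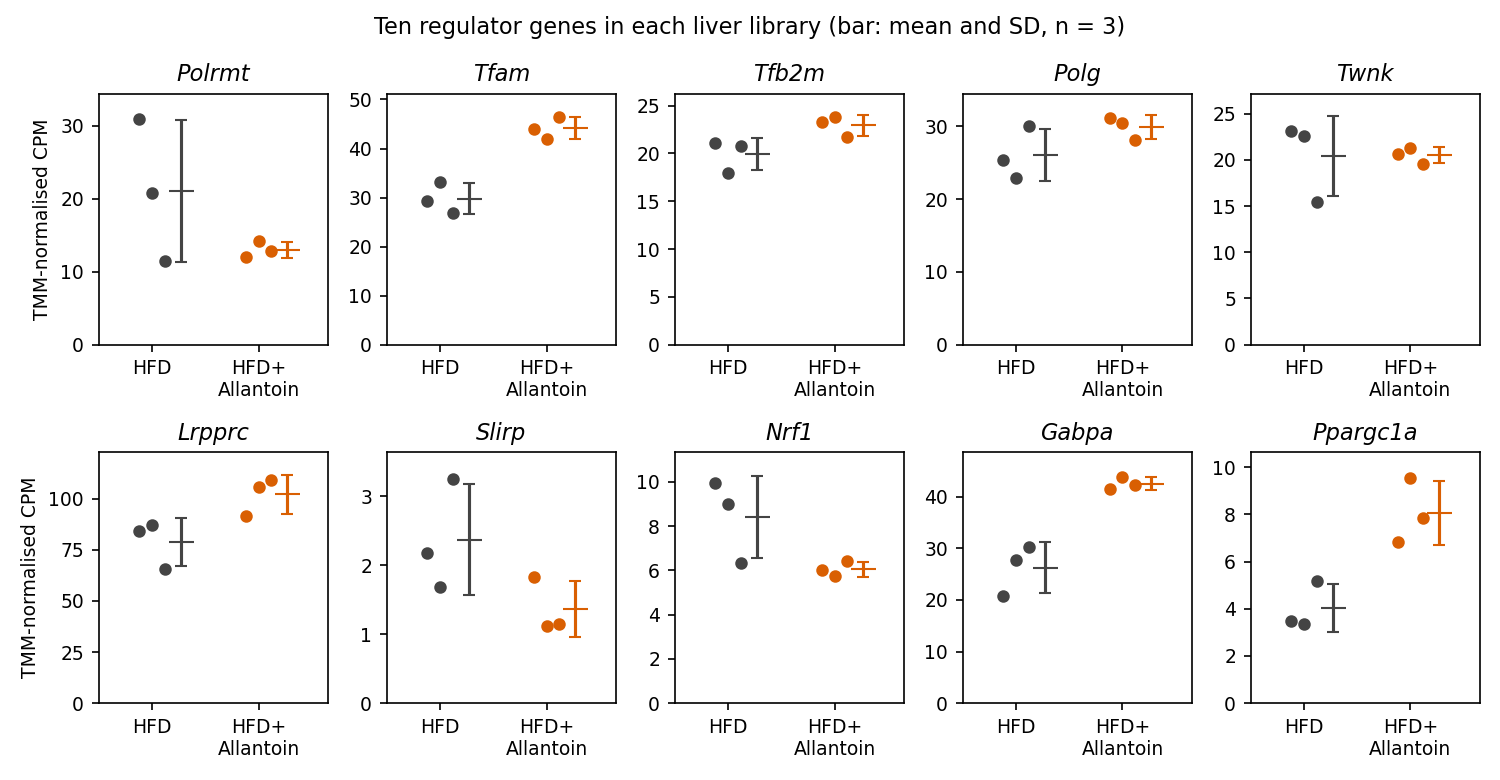
Level of each of the 10 genes in each library, as TMM-normalised CPM on axes that start at 0, with HFD in grey and HFD+Allantoin in orange, 1 point per library, and the mean and SD of 3 libraries beside them. Tfam, Gabpa, Ppargc1a, Lrpprc and Tfb2m have all orange points above all grey points, and the HFD points of Polrmt spread from 11.5 to 30.9 CPM.

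In the transcription machinery, Tfam moved and its partners did not pass the test. Tfam (ENSMUSG00000003923, chromosome 10, 71225464 to 71238280, minus strand) packages mtDNA and bends its promoters. Its level was 29.4, 33.2 and 26.8 CPM in the HFD libraries and 43.9, 41.9 and 46.4 CPM in the HFD+Allantoin libraries. All HFD+Allantoin libraries were higher, and each group was narrow. On the log2 scale the difference was 0.57 (SE 0.155, edgeR adjusted p = 0.0296). Leaving out HFD replicate 2 gave 0.65 (adjusted p = 0.0319 in edgeR). Without any one of the HFD+Allantoin libraries the difference stayed between 0.53 and 0.61 but no longer passed (edgeR adjusted p from 0.0876 to 0.104), and without HFD replicate 3 it was 0.50 (edgeR adjusted p = 0.0547). The call was also lost once the dependence of counts on transcript length and GC content was taken out of each library, which left 0.38 (edgeR adjusted p = 0.10).

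Polrmt (ENSMUSG00000020329, chromosome 10, 79736123 to 79746581, minus strand), the polymerase itself, was at 30.9, 20.7 and 11.5 CPM in HFD and at 11.9, 14.2 and 12.8 CPM in HFD+Allantoin. HFD replicates 1 and 2 stood above the rest, and HFD replicate 3 lay below all 3 HFD+Allantoin libraries. The log2 fold change was -0.69 (SE 0.316, edgeR adjusted p = 0.141). One library decided its size: -0.31 remained when HFD replicate 1 was left out and -0.99 when HFD replicate 3 was, and of these only the latter passed (edgeR adjusted p = 0.0104). Without HFD replicate 2 it was -0.70 (adjusted p = 0.203 in edgeR).

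Tfb2m (ENSMUSG00000026492, chromosome 1, 179528055 to 179546267, minus strand), which opens the promoter for the polymerase, was at 21.1, 18.0 and 20.7 CPM in HFD and at 23.3, 23.8 and 21.7 CPM in HFD+Allantoin. The groups did not overlap, but the difference was small at 0.20 on the log2 scale (SE 0.157, edgeR adjusted p = 0.370). A near-identical transcript of the pseudogene Gm1818 exists on chromosome 12, so reads of Tfb2m could be split between them. No other member had such a copy.

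The balance of Tfam to Polrmt, a ratio chosen after its values were seen, was 0.951, 1.60 and 2.34 Tfam counts per Polrmt count in HFD and 3.67, 2.95 and 3.62 in HFD+Allantoin. Every HFD+Allantoin library was above every HFD library, and the exact permutation test gave p = 0.1, the smallest that 3 against 3 libraries allow. The HFD libraries differed from each other by more than the HFD+Allantoin libraries did, with SDs of 0.697 and 0.401.

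The replication genes Polg and Twnk did not pass the test. Polg (ENSMUSG00000039176, chromosome 7, 79446231 to 79466362, minus strand), the mtDNA polymerase, was at 25.3, 22.9 and 30.0 CPM in HFD and at 31.2, 30.5 and 28.1 CPM in HFD+Allantoin. HFD replicate 3 fell inside the range of the other group. Polg differed by 0.20 on the log2 scale (SE 0.164, edgeR adjusted p = 0.410). Twnk (ENSMUSG00000025209, chromosome 19, 45005663 to 45012762, plus strand), the helicase that opens the replication fork, was at 23.1, 22.6 and 15.5 CPM in HFD and at 20.7, 21.3 and 19.6 CPM in HFD+Allantoin. The HFD libraries enclosed the other group on both sides, and the log2 fold change was 0.01 (SE 0.194, edgeR adjusted p = 0.979). Twnk shares 507 exon bases with Mrpl43 on the opposite strand. Mrpl43 had 188, 270 and 321 counts in HFD and 421, 431 and 367 in HFD+Allantoin. Polg shares 921 with Fanci, also on the opposite strand and at 3 counts or fewer in each library. Counts of Polg plus Twnk per count of Polrmt, Tfam and Tfb2m were 0.596 to 0.771 in HFD and 0.588 to 0.655 in HFD+Allantoin, with overlap (exact permutation p = 0.8).

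The pair that stabilises mitochondrial mRNAs gave values on opposite sides of 0, neither past the test. Lrpprc (ENSMUSG00000024120, chromosome 17, 84705247 to 84790789, minus strand) was at 84.1, 87.3 and 65.5 CPM in HFD and at 91.5, 106 and 109 CPM in HFD+Allantoin. The groups did not overlap, with 91.5 CPM in replicate 4 just above 87.3 CPM in HFD replicate 2. Its log2 fold change was 0.37 (SE 0.173, edgeR adjusted p = 0.145). Slirp (ENSMUSG00000021040, chromosome 12, 87443896 to 87452206, plus strand), its RNA-binding partner, was at 2.18, 1.68 and 3.26 CPM in HFD and at 1.83, 1.12 and 1.15 CPM in HFD+Allantoin, from 17 to 39 counts per library. HFD replicate 2 lay below HFD+Allantoin replicate 4, and the log2 fold change was -0.80 (SE 0.435, edgeR adjusted p = 0.205).

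Slirp values are uncertain for a further reason: 2914 of its 3104 exon bases lie opposite exons of Snw1, and the strand setting of the counting is not given in the sources used here. Snw1 had 46, 39 and 55 counts in HFD and 186, 275 and 212 in HFD+Allantoin, so that it moved the other way. Alkbh1 shares 122 exon bases with Slirp, also on the opposite strand, and moved the same way as Slirp. It had 150, 88 and 212 counts in HFD and 38, 46 and 51 in HFD+Allantoin. The part of either gene in the Slirp counts was not tested. Lrpprc counts per Slirp count were 38.5, 52.0 and 20.1 in HFD and 49.9, 94.1 and 95.1 in HFD+Allantoin, with overlap (exact permutation p = 0.2).

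Of the nuclear regulators, Gabpa and Ppargc1a rose and Nrf1 did not pass. Gabpa (ENSMUSG00000008976, chromosome 16, 84834925 to 84863779, plus strand) is the DNA-binding subunit of GABP. It was at 20.7, 27.7 and 30.3 CPM in HFD and at 41.6, 43.9 and 42.2 CPM in HFD+Allantoin. The groups were well apart and the HFD+Allantoin libraries lay close together. The log2 fold change was 0.70 (SE 0.178, edgeR adjusted p = 0.0231), and 0.73 without HFD replicate 2 (edgeR adjusted p = 0.0399). Without any one HFD+Allantoin library it stayed between 0.68 and 0.72 but no longer passed (edgeR adjusted p from 0.0724 to 0.0906), nor did it with the length and GC trend removed (0.48, edgeR adjusted p = 0.0562). Gabpa shares 397 exon bases with Atp5j on the opposite strand, whose counts were 2560 to 3157 in HFD and 1817 to 2073 in HFD+Allantoin.

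GABP binds as a complex with a β subunit. Gabpb1, which encodes one of them, was at 11.1, 6.52 and 10.9 CPM in HFD and at 4.99, 5.80 and 5.40 CPM in HFD+Allantoin, without overlap and with a log2 fold change of -0.82 that did not pass (edgeR adjusted p = 0.0556). Gabpb2, which encodes another β subunit, was more abundant and went the other way. It was at 16.2, 17.8 and 16.7 CPM in HFD and at 18.0, 18.8 and 19.4 CPM in HFD+Allantoin, without overlap. Its log2 fold change of 0.15 did not pass (edgeR adjusted p = 0.517). Gabpa counts per Gabpb1 count, a ratio also chosen after its values were seen, were 1.86, 4.24 and 2.79 in HFD and 8.34, 7.57 and 7.81 in HFD+Allantoin (exact permutation p = 0.1). This ratio leaves out Gabpb2.

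Ppargc1a (ENSMUSG00000029167, chromosome 5, 51454250 to 51567726, minus strand), the coactivator, had the largest fold change among the 10 members. It was at 3.49, 3.36 and 5.18 CPM in HFD and at 6.82, 9.52 and 7.83 CPM in HFD+Allantoin, from 32 to 161 counts per library. All HFD+Allantoin libraries were higher. The difference was 1.0 on the log2 scale (SE 0.286, edgeR adjusted p = 0.0343). Leaving out HFD replicate 1, HFD replicate 2 or any HFD+Allantoin library kept it between 0.87 and 1.11 but past no threshold (edgeR adjusted p from 0.0684 to 0.146), and removing the length and GC trend left 0.76 (edgeR adjusted p = 0.0644).

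Nrf1 (ENSMUSG00000058440, chromosome 6, 30047988 to 30153458, plus strand), the factor that binds the GC-rich core shown above, was at 9.93, 8.99 and 6.35 CPM in HFD and at 6.01, 5.74 and 6.41 CPM in HFD+Allantoin. Its HFD replicate 3 lay within the HFD+Allantoin range, as that of Polrmt lay close to it. Nrf1 had a log2 fold change of -0.47 (SE 0.250, edgeR adjusted p = 0.195).

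Per kilobase of the longest transcript, Lrpprc had the highest level in both groups, at 18.0 ± 2.68 CPM per kb in HFD and 23.2 ± 2.13 in HFD+Allantoin (SD, n = 3). In HFD the next genes in order were Tfb2m, Tfam, Twnk, Gabpa, Polrmt and Polg, from 8.14 down to 3.33 CPM per kb, and each of these overlapped its neighbour in the order. Nrf1 (2.08 CPM per kb) stood apart from Polg above and Slirp below, and Slirp (0.879) and Ppargc1a (0.621) overlapped. In HFD+Allantoin the order was Tfam (10.6 CPM per kb), Tfb2m (9.37), Gabpa (8.53), Twnk (5.88), Polg (3.82), Polrmt (3.03), Nrf1 (1.50), Ppargc1a (1.25) and Slirp (0.506). There only Nrf1 and Ppargc1a overlapped as neighbours. Tfam thus stood above Tfb2m in level per length with HFD+Allantoin, whereas their values overlapped in HFD. The order between genes rests on the transcript length used, such as 2701 bases for Slirp and 7837 for Polg. Which transcripts were present was not tested.

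The RNA that these genes serve was lower in HFD+Allantoin. The 13 protein genes of mtDNA made up 35.5%, 19.5% and 17.1% of all counts in HFD and 7.24%, 6.68% and 11.1% in HFD+Allantoin, or 24.0% ± 9.98 against 8.34% ± 2.41 (SD, n = 3, exact permutation p = 0.1, the smallest possible). HFD replicate 1 stood above the other HFD libraries, and the groups did not overlap. For all 37 mtDNA genes the share differed by -16.3 percentage points, by -10.5 without HFD replicate 1 and by -18.6 without HFD replicate 2. All 30 mtDNA genes tested were lower at an adjusted p under 0.05 in edgeR, with a median log2 fold change of -2.01 over the protein genes. The protein genes on the strand coding for most of them ranged from -3.19 for mt-Nd3 to -1.79 for mt-Co3. The protein gene of the other strand, mt-Nd6, was at -1.68, and the rRNA genes mt-Rnr1 and mt-Rnr2 at -2.22 and -2.07. Of the 13 protein genes, 9 have a near-identical annotated transcript on a nuclear chromosome, and the median of the 4 without was -2.0. Nuclear copies without an annotated transcript were not searched.

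**Figure D2:**
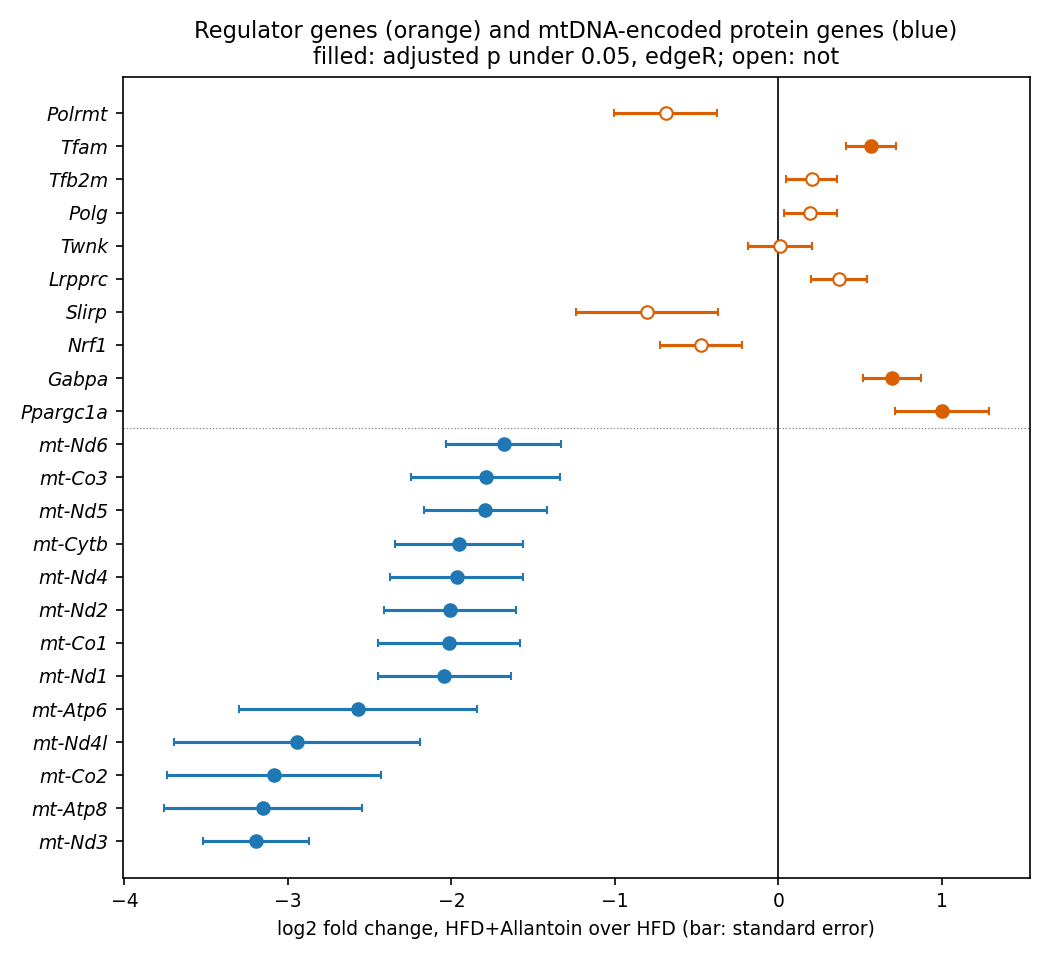
Log2 fold change of HFD+Allantoin over HFD with its standard error for the 10 regulator genes (orange) and the 13 mtDNA-encoded protein genes (blue), filled where the edgeR adjusted p was under 0.05. The regulators lie between -0.80 (Slirp) and 1.0 (Ppargc1a), and every mtDNA gene lies at -1.68 or lower.

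Each regulator was then set against mtDNA-encoded RNA within the same library, which needs no scaling between libraries. For Tfam there were 16018, 6567 and 6721 mtDNA protein-gene counts per Tfam count in HFD and 1384, 1372 and 2145 in HFD+Allantoin, 5.58-fold lower on the log scale. For Polrmt there were 15226, 10507 and 15747 in HFD and 5087, 4052 and 7769 in HFD+Allantoin, 2.51-fold lower. For Lrpprc there were 5596, 2496 and 2755 in HFD and 664, 544 and 913 in HFD+Allantoin, 4.89-fold lower. All 3 ratios separated the groups (exact permutation p = 0.1 each).

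The same ratio was 6.17-fold lower for Gabpa and 7.63-fold lower for Ppargc1a, and between 2.75-fold (Nrf1) and 4.33-fold lower for Nrf1, Polg, Tfb2m and Twnk. It was lower without overlap for 9 of the 10 members, and only Slirp overlapped (2.19-fold lower, exact permutation p = 0.2). Over the 12765 nuclear genes tested the same ratio was lower without overlap for 80.8%, so the count among the members is close to that of nuclear genes in general. Over the members the log2 difference ran from -2.93 to -1.13. Without HFD replicate 2 the log2 difference was -2.70 for Tfam, -1.51 for Polrmt, -2.81 for Gabpa and -2.96 for Ppargc1a. These ratios share their numerator and are not independent of each other.

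**Figure D3:**
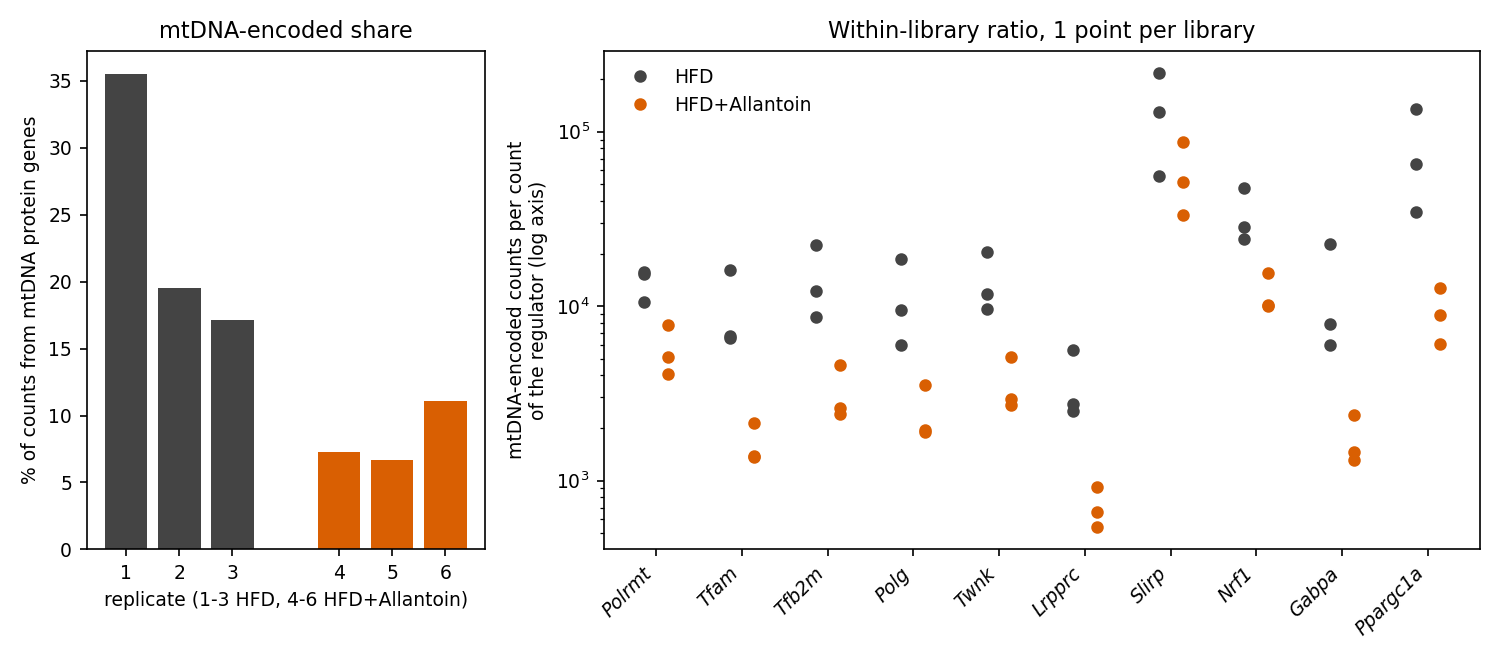
Left, percentage of all counts that came from the 13 mtDNA protein genes in each library, with bars from 0. Right, mtDNA protein-gene counts per count of each regulator on a log axis, 1 point per library, where the HFD+Allantoin points lie below the HFD points for every gene but Slirp.

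Within mtDNA-encoded RNA, the balance of products was compared as well. Counts of the protein genes per count of mitochondrial rRNA were 40.6, 34.0 and 22.3 in HFD and 28.5, 30.6 and 49.9 in HFD+Allantoin, with overlap (exact permutation p = 0.7). The 2 rRNA genes made up only 0.566% to 0.862% of counts in HFD and 0.214% to 0.249% in HFD+Allantoin. The libraries were made with an mRNA-Seq kit, and how fully it captured rRNA was not tested. This ratio therefore describes counts, not the amounts of both RNAs in the tissue. Counts of the 12 protein genes on the same strand per count of mt-Nd6 on the other were 66.6, 62.7 and 51.8 in HFD and 49.4, 51.5 and 48.7 in HFD+Allantoin. HFD+Allantoin libraries were all lower in this ratio, by less than the spread among HFD libraries between replicate 3 and replicate 1 (exact permutation p = 0.1). The strand setting of the counting bears on mt-Nd6, because it lies opposite other mitochondrial transcripts.

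Among 19 further genes of mtDNA transcription and replication, 1 passed the test and 18 did not. Ssbp1, the single-stranded DNA-binding protein of the replication fork, was at 31.6, 34.2 and 27.4 CPM in HFD and at 13.3, 16.5 and 18.0 CPM in HFD+Allantoin. All HFD+Allantoin libraries were lower, with a log2 fold change of -0.96 (SE 0.180, edgeR adjusted p = 0.00785). A near-identical transcript of Ssbp1, the pseudogene Gm12115, could share its reads. With TMM scaling in edgeR, and with DESeq2 and limma-voom, 0 of the 19 were called higher and 1 lower. At an unadjusted p under 0.05 in edgeR, 1 was higher and 5 were lower. Scaling by library size alone, which raised the median of all genes by 0.41 on the log2 scale, gave 3 higher and 0 lower, with Ssbp1 at -0.55 (edgeR adjusted p = 0.0579). The median log2 fold change of the list was -0.30, beside -0.03 for all genes tested.

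Among 35 genes that process, modify or stabilise mitochondrial RNA, 3 were higher and 2 lower, and the list's median was 0.05. Scaled by library size alone, 9 were called higher and 1 lower, the median was 0.47, and Fastk no longer passed (edgeR adjusted p = 0.0578). Those higher were the tRNA 3′ processing enzyme Elac2 (log2 fold change 0.60), the ribosome assembly factor Fastkd2 (0.92) and the pseudouridine synthase Trub2 (0.82). Those lower were Fastk (-0.95) and the rRNA methyltransferase Mrm3 (-1.22). Mrm3 was at 10.6, 11.5 and 10.03 CPM in HFD and at 4.55, 4.79 and 4.39 CPM in HFD+Allantoin, and its call held under all 15 alternatives. Calls of Elac2, Fastkd2 and Trub2 were lost when any one HFD+Allantoin library was left out, and without HFD replicate 2 only 1 of the list was called higher. Fastk shares 1141 exon bases with Slc4a2 and Trub2 921 with Coq4, both on the opposite strand. Among 12 genes that supply mitochondrial nucleotides, Sucla2 was higher (1.18), the deoxyguanosine kinase Dguok (-1.08) and the pyrimidine nucleotide carrier Slc25a36 (-1.26) were lower, and the median was -0.00. Without any one HFD+Allantoin library, the calls of Sucla2 and Slc25a36 were lost and 0 of the list were called higher and 1 lower. The Slc25a36 call was also lost without HFD replicate 1 or 2 and with library-size scaling, and the gene has a near-identical copy, Gm13217.

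Among 26 other regulators of mitochondrial biogenesis, 24 were tested (Esrrb and Perm1 were too low), 5 were higher and 2 lower. Ppara, the nuclear receptor for fatty acids, was at 39.1, 27.4 and 18.9 CPM in HFD and at 109, 146 and 91.4 CPM in HFD+Allantoin. The lowest HFD+Allantoin library was above the highest HFD library, and the log2 fold change was 2.02 (SE 0.287, edgeR adjusted p = 0.00389). Its dimer partner Rxra had a log2 fold change of 0.92, the AMP-activated kinase subunit Prkaa2 one of 1.11, the mitochondrial deacetylase Sirt3 one of 0.87 and the thyroid hormone receptor Thrb one of 0.70. Calls of Ppara, Rxra and Prkaa2 held under all 15 alternatives. The Thrb call was lost under 6 of them (without HFD replicate 1 or 2 or any one HFD+Allantoin library, and with the length and GC trend removed), and the Sirt3 call without HFD+Allantoin replicate 4 or 5. The 2 lower genes were Mybbp1a (-0.57), which encodes a protein that can repress PGC-1α, and the PGC-1 family member Pprc1 (-1.01). The list's median was 0.07. Without HFD replicate 2 it was -0.14, with 4 called higher and 4 lower, and without HFD replicate 1 or any one HFD+Allantoin library 0 were called lower. Library-size scaling gave 8 higher and 0 lower.

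The known targets of NRF-1 and GABP did not move one way. Of 26 such genes, 6 were higher and 10 lower, and the median log2 fold change was -0.26. Scaled by library size alone, 7 were called higher and 5 lower, with a median of 0.14, below the 0.38 of all genes under that scaling. Among the higher were the complex II subunits Sdha (1.22) and Sdhd (1.13), the ATP synthase subunit Atp5b (0.95), the heme synthesis enzyme Alas1 (0.91) and the outer membrane channel Vdac1 (0.71). Lower genes included the cytochrome oxidase subunits Cox5b (-1.41), Cox7c (-1.20) and Cox6b1 (-1.09), Uqcrb of complex III (-1.10) and the ATP synthase subunit Atp5g1 (-1.04). Cox5b was at 188, 214 and 179 CPM in HFD and at 80.1, 73.5 and 64.8 CPM in HFD+Allantoin, whereas Sdha was at 96.7, 225 and 227 CPM in HFD and at 441, 429 and 408 CPM in HFD+Allantoin.

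The targets that moved in each direction also differed in length. The longest transcript had a median of 2461 bases among the 6 higher targets and of 737 bases among the 10 lower ones, beside 3232 bases among all genes tested. With the length and GC trend of each library removed, 4 were called higher and 8 lower, and the part of length in the counts was not tested further. Without HFD replicate 2, 2 were called higher and 10 lower, and without any one HFD+Allantoin library 0 were called higher and 7 or 8 lower. Cox5b, Cox7c, Atp5g1 and Uqcrb have near-identical pseudogene copies that could share their reads. The 3 called members have longest transcripts of 4167 to 6464 bases.

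Among 14 liver genes known to be coactivated by PGC-1α, 4 were higher and 1 lower, and the median was -0.14. Higher were the gluconeogenic enzyme Fbp1 (log2 fold change 1.51), the fatty acid oxidation genes Cpt1a (0.95) and Acadm (0.54) and Sirt3, which is in both lists. Fgf21, a hormone of the fasting response, was lower at -2.82 and rested largely on HFD replicate 1, at 27.3 CPM against 4.54 and 2.84 in the other HFD libraries. Without HFD replicate 1 its log2 fold change was -1.18 (edgeR adjusted p = 0.16). Its call was lost with limma-voom, and none of these 14 genes was called higher without HFD+Allantoin replicate 5 in edgeR.

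**Figure D4:**
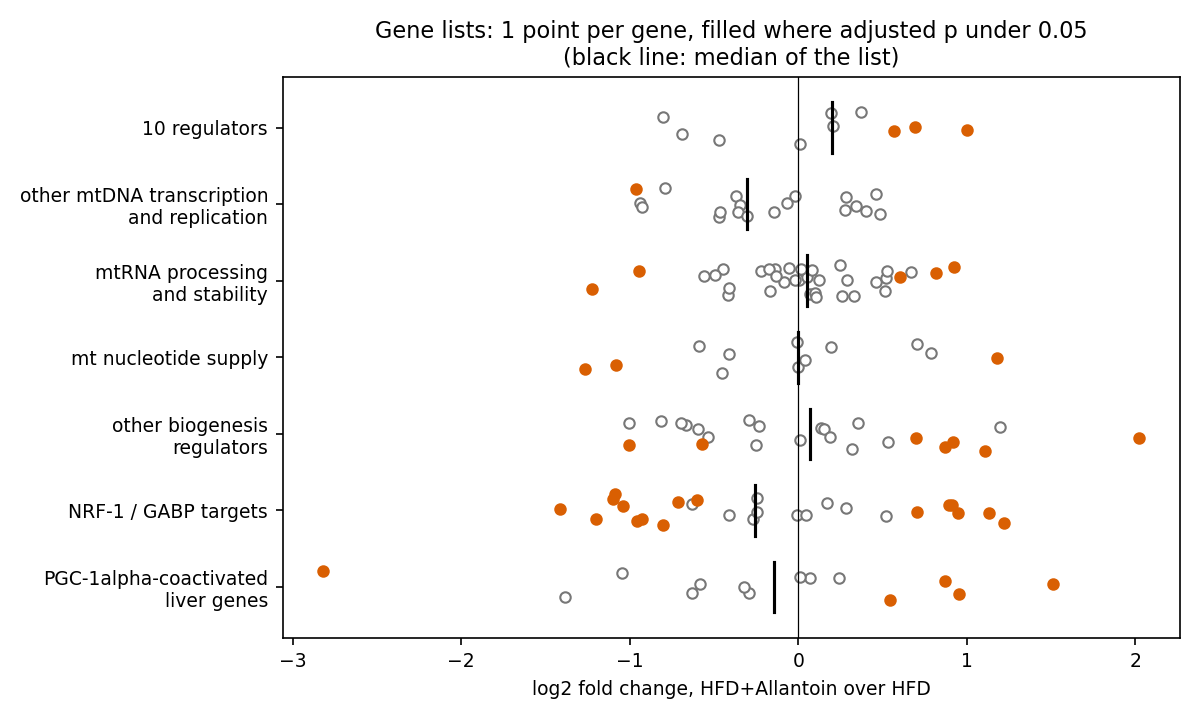
Log2 fold change of HFD+Allantoin over HFD for every tested gene of each list, 1 point per gene, filled orange where the edgeR adjusted p was under 0.05, with the median of each list as a black line. Medians run from -0.30 to 0.20, and the targets of NRF-1 and GABP hold filled points on both sides.

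Markers of other liver cells moved between the groups too. In bulk tissue, fewer cells of a type and less RNA per cell cannot be told apart. Of 12 stellate cell markers, 9 were higher, and their summed level ran from 213 to 350 CPM in HFD and from 496 to 575 CPM in HFD+Allantoin. Of 12 macrophage markers, 3 (Adgre1, Vsig4 and Cd5l) were higher, with summed levels of 192 to 463 CPM in HFD and 518 to 593 CPM in HFD+Allantoin. Of 12 hepatocyte markers, 1 (Cps1) was higher and 5 (Apoa1, Ttr, Serpina1c, Arg1 and Trf) were lower, while the summed levels overlapped. Of 12 endothelial markers, 2 (Stab1, -0.94, and Egfl7, -0.73) were called lower and 0 higher. Most of that list went the other way, with 9 of 12 above 0 and a median log2 fold change of 0.36. Its summed levels overlapped, at 170 to 300 CPM in HFD and 222 to 325 CPM in HFD+Allantoin. Of 3 cholangiocyte markers tested, Sox9 was lower (-3.17, edgeR adjusted p = 0.00735). It was at 13.0, 8.30 and 43.6 CPM in HFD and at 2.27, 2.78 and 2.16 CPM in HFD+Allantoin. Plin4 of the fat cell list (-1.71) and Csf3r of the neutrophil list (-1.50) were lower as well. Brown fat markers, of which Dio2 was at 0 in all libraries, summed to 157, 487 and 172 CPM in HFD and to 117, 56.4 and 55.6 CPM in HFD+Allantoin, nearly all of it Elovl3. Elovl3 was called lower (-1.86, edgeR adjusted p = 0.0217). The part of these cell types in the levels of Tfam, Gabpa and Ppargc1a was not tested. HFD replicate 2, with the fat cell transcripts, had the lowest Ppargc1a level of the 6 libraries and the highest Tfam level of the HFD group.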

How the data were processed

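Liver RNA of 6 libraries was prepared with a SMARTER mRNA-Seq kit from total RNA and sequenced on an Illumina platform by a company, and the authors deposited 1 table of raw counts per gene. Builds named in the submitters' processing notes are GRCm38 and mm10, and the aligner, the counting tool and the strand setting are not given in the sources used here. Of 54961 features, 429 carried no Ensembl identifier and were left out (0.197% to 0.306% of counts), and 54495 of the other 54532 were found in GENCODE M21 (GRCm38), which gave symbols, positions and lengths. All sample columns were used.

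Groups came from the labels. Counts were tested with edgeR 4.0.16 (R 4.3.3): TMM, filterByExpr, the quasi-likelihood F test and Benjamini-Hochberg adjustment, two-sided, called at an adjusted p under 0.05, with the group as the only term. Standard errors of log2 fold changes were derived from the F statistic. Single values per library were compared by two-sided exact permutation tests (scipy 1.17.1) of the difference of means, on the log2 scale for ratios. Depths of 11304059 to 14562848 counts limit Slirp most, at 17 to 39 counts per library. Near-identical transcripts were searched with BLAST 2.17.0 (at least 95% identity over 200 bases). The fit was tested on simulated data.

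The members and gene lists were chosen with earlier results of these data known. All members are named, and of every other list up to 5 called genes per direction with the smallest p. Also named are mt-Nd6, both rRNA genes and the mtDNA protein genes with the largest and smallest change on the other strand. Gabpb1, Gabpb2, the Tfam to Polrmt ratio and marker genes with counts were named after their values were seen. Each result was also computed with RLE, upper-quartile or library-size scaling, DESeq2 1.42.0, limma-voom (limma 3.58.1), no filter, a minimum of 10 counts in all libraries, without the mitochondrial chromosome, with each library's trend in length and GC content removed (splines with 5 degrees of freedom), and without each library in turn.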

Additional observations from a re-analysis of the deposited data

How the results depend on the processing

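No paired analysis was possible because the groups share no replicate number. Scaling by library size alone moved the median of all genes by 0.41 on the log2 scale, called 3162 genes higher and 674 lower, and called 5 members higher, adding Tfb2m (edgeR adjusted p = 0.0322) and Lrpprc (0.0161). Relative to that shift, no member changed direction. Without the filter on low counts 1 member was called lower (Polrmt, log2 fold change -0.64, edgeR adjusted p = 0.0368), and with the length and GC trend removed 0 members were called higher, although 3 were at an unadjusted p under 0.05 in edgeR and 1434 of 12787 genes were still called higher. With 1 library left out, genes called higher ranged from 460 to 1773 and genes called lower from 564 to 2008, with the fewest without HFD+Allantoin replicate 5. Members called higher then ranged from 0 to 2, with 0 whenever an HFD+Allantoin library was left out, and members called lower from 0 to 1 (Polrmt without HFD replicate 3). Twnk, near 0, ran from -0.15 to 0.11 on the log2 scale when 1 library was left out and to 0.44 with library-size scaling, and turned negative without HFD replicate 3 (-0.15) or HFD+Allantoin replicate 5 (-0.01). The other 9 members kept their direction under all 15 alternatives. The median of the 13 mtDNA protein genes ran from -2.32 to -1.48, the latter without HFD replicate 1. Leaving out the mtDNA genes with a near-identical nuclear transcript was chosen after seeing the data. Fewer libraries leave fewer degrees of freedom, and the cause of each lost call was not tested.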
